A study of Gallus gallus with 6 samples.

Results

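The genes described here are XBP1, CREB3L2, DNAJB9, CD38 and SDC1, which act in plasma cells or in the stress response of the secretory pathway. Their members are all gene probes of the array whose accession maps to 1 of these 5 genes: 10 probes of 43603 (5 genes of the 4932 with a name), with 2 for XBP1, 3 for CREB3L2, 2 for DNAJB9, 1 for CD38 and 2 for SDC1. Expression was measured in IRF4-deficient DT40 cells (3 arrays, called knockout below) and in wild-type DT40 cells (3 arrays), all untreated. DT40 is an established chicken B cell line from a bursal lymphoma, and IRF4 belongs to the interferon regulatory factors, which control transcription in immune cells. Per the labels' protocols each group came from 3 independent cultures, and the sources used here do not say how many knockout clones these represent. The comparison asks how transcript levels of untreated cells differ without IRF4.

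In mouse, IRF4 is needed for B cells to become plasma cells, which devote much of their endoplasmic reticulum to antibody secretion. When unfolded proteins build up there, the sensor IRE1 (gene ERN1) splices XBP1 mRNA into the form that encodes an active transcription factor. In mouse cells its targets include chaperone genes such as DNAJB9. CREB3L2 encodes a related factor that sits in the membrane of the endoplasmic reticulum and is cut free by proteases under stress. CD38 and SDC1 (syndecan-1) are surface proteins used in human and mouse to recognise plasma cells.

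Levels are given as log2 of the background-subtracted signal relative to the 75th percentile of each array, so 0 is that percentile. Changes are knockout over wild type, and errors on changes are limma standard errors (SE). Adjusted p is limma's p after Benjamini-Hochberg adjustment over all 28761 tested probes, with 0.05 as the threshold. Under another setting the adjustment runs over the probes fitted in that setting. Between 62.4% and 68.2% of gene spots an array were well above background, the lowest share being that of wild-type replicate 3. Over the tested probes, r was 0.9386 to 0.9397 between a knockout and a wild-type array and 0.9971 to 0.9977 within a group. Of the B cell marker list, all 11 genes with a probe, among them CD79B, PAX5, BTK and EBF1, were well above background on every array. Their summed linear signal, in units of the 75th percentile, was 193 to 202 in the knockout and 163 to 178 in wild type. CD72 (log2 fold change 3.21) and SYK (0.57) were called higher, and CD81 (-1.45) and LYN (-0.95) lower. Smaller changes were called for IKZF1 (0.50), PAX5 (0.24), EBF1 (0.23) and BCL6 (-0.34). CD79B, BTK and POU2AF1 did not pass on their brightest probes. IRF4 itself checked the labels. Its brighter probe (A_87_P037691) stood at -1.12, -1.37 and -1.13 in the knockout, against 3.16, 2.96 and 2.91 in wild type, an 18.6-fold lower signal (log2 fold change -4.21 ± 0.10, adjusted p = 4.1e-07). Signal of this probe remained in the knockout, well above background on 3 of 3 arrays at 43.7 to 54.2 times the local background. The dimmer one (A_87_P234013) passed background on 0 of 3 knockout arrays and on 3 of 3 wild-type arrays, at least 11.2-fold lower. Bounds of this kind, here and below, divide the bright group's mean by a floor. On each dim array the floor is the weakest signal that counted as well above background, or the probe's own signal where that was larger.

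The 5 genes moved in different directions. CREB3L2 was 22.1-fold higher in the knockout, CD38 was not detected there, and DNAJB9 and SDC1 were between 1.59-fold and 1.67-fold lower. The 2 XBP1 probes were fitted as 1.06-fold and 1.08-fold higher. The RNA came from whole cultures, so fewer cells with a transcript and less of it per cell cannot be told apart. Of the 10 probes 9 passed the filter, which required either group to have all 3 of its arrays well above background. Of these 9, limma called 3 higher and 5 lower, and 1 did not pass the threshold. Calls were common on these arrays: 70.1% of all tested probes were called, 40.5% higher and 29.6% lower, so the number of calls among the 9 says little and the sizes are what set the probes apart. A call with a change of at least 2-fold was seen in 7.39% of tested probes upward and in 6.58% downward. The groups did not overlap for 9 of the 10 probes, 4 with the knockout higher and 5 with it lower. Among all tested probes the groups did not overlap in 75.5%, with the knockout higher in 43.5% and lower in 32%.

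**Figure D1:**
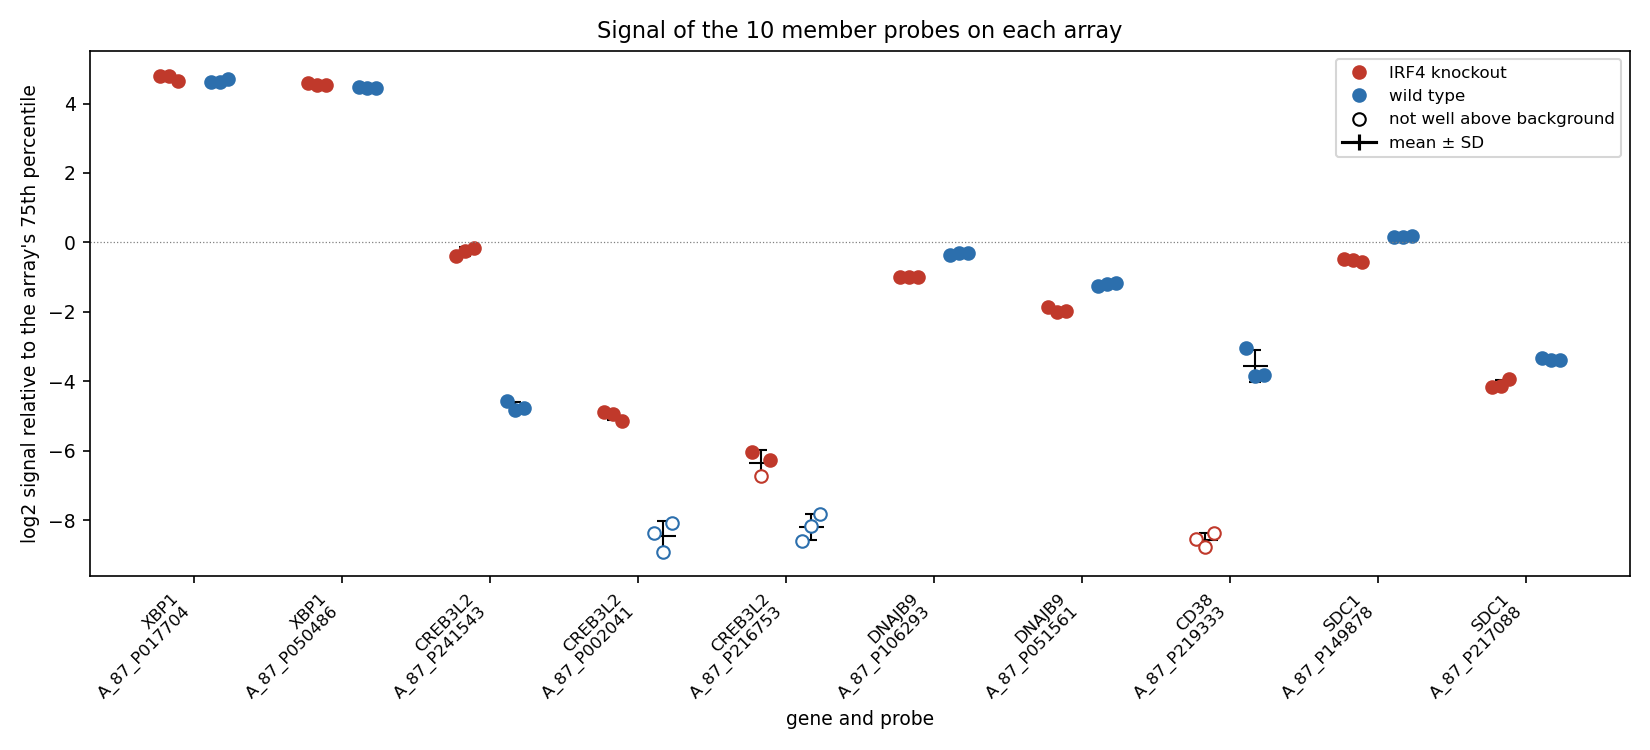
Log2 signal relative to the array's 75th percentile (vertical axis) for the 10 probes of the 5 genes (horizontal axis), with the knockout arrays left of the wild-type arrays. Points are arrays, open points are not well above background, and bars are mean ± SD (n = 3). The groups overlap only for XBP1 probe A_87_P017704. CREB3L2 and CD38 show the widest separation, in opposite directions. The knockout values of CD38 and the wild-type values of the dimmer CREB3L2 probes are at background, so these gaps are no measured sizes.

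XBP1 RNA was abundant and nearly equal in both groups. Probe A_87_P017704 stood at 4.80, 4.80 and 4.64 in the knockout, against 4.63, 4.63 and 4.72 in wild type. The groups overlapped, because knockout replicate 3 lay below wild-type replicate 3. The difference was 0.09 ± 0.06 (95% interval -0.05 to 0.23, adjusted p = 0.22) on this scaling, so the upper end of the interval was 1.17-fold higher and its lower end 1.04-fold lower. The second probe, A_87_P050486, stood at 4.60, 4.55 and 4.52 in the knockout, against 4.46, 4.44 and 4.44 in wild type. Here the knockout arrays all lay above the wild-type arrays, by a gap of 0.06, and the probe was called higher by 0.11 ± 0.04 (1.08-fold, adjusted p = 0.035). The call was lost under each other scaling and background correction: the change was 0.02 with median centring (adjusted p = 0.69), 0.03 with quantile scaling (adjusted p = 0.52) and 0.14 with normexp (adjusted p = 0.060). Dropping any array other than knockout replicate 3 also lost it (adjusted p up to 0.10). The median change of all tested probes on the main scaling was 0.08, close to the change of both XBP1 probes. The change on the first probe minus that on the second was -0.02 ± 0.05 (exact two-sided permutation p = 0.80). Signals of both probes lay between 61358 and 79118 units on the knockout arrays and between 64008 and 77582 on the wild-type arrays, and no gene spot was saturated. Where the probes lie in the transcript is not known here, so the values are of XBP1 RNA in all, and the spliced and unspliced forms cannot be told apart.

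CREB3L2, the other transcription factor among the 5 genes, rose on both of its tested probes. Its brightest probe (A_87_P241543) stood at -0.39, -0.24 and -0.15 in the knockout, against -4.58, -4.82 and -4.78 in wild type. All 6 arrays were well above background, and the lowest knockout array lay 4.19 above the highest wild-type array. The change was 4.47 ± 0.09, or 22.1-fold (95% interval 19.0 to 25.7, adjusted p = 2.8e-07). With normexp, whose offset of 50 lifts dim signals, it was 12.7-fold. In the knockout the signal of this probe was 74.9 to 95.8 times the local background, against 3.79 to 5.09 times in wild type, so the wild-type level was near the lower end of what the array measures.

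The dimmer probes of CREB3L2 moved the same way, with less room to do so. Probe A_87_P002041 stood at -4.88, -4.95 and -5.14 in the knockout, against -8.38, -8.92 and -8.07 in wild type, where it did not rise clear of background on any array. It was at least 3.02-fold higher. Limma's adjusted p of 2.2e-05 belongs to the fitted change, which takes in wild-type signals at background, and does not test this bound. The probe passed the filter through its knockout arrays alone. With normexp, whose offset raises the floor, the fitted rise was 2.37-fold. Detection on all knockout arrays and on no wild-type array was found in 1.62% of the tested probes. The third probe, A_87_P216753, stood at -6.03, -6.73 and -6.26 in the knockout, against -8.60, -8.17 and -7.84 in wild type. In the knockout 2 of 3 arrays, and in wild type none, were well above background, so it did not pass the filter, was not tested and has no fold. On all 3 probes every knockout array lay above every wild-type array. Because the dimmer probes were at background in wild type, the sizes of the changes on the 3 probes cannot be compared.

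Beside the rise of CREB3L2, markers of fibroblasts also differed. The summed linear signal of the 7 fibroblast markers with a probe, in units of the 75th percentile, was 5.64 to 6.55 in the knockout and 0.343 to 0.366 in wild type. COL1A2, a collagen gene, made up most of it, at 2.56 in the knockout and -1.68 in wild type on the log2 scale. THY1 did not rise clear of background on any array, and 3 of the 7 markers were well above background on all knockout arrays against 1 of the 7 on all wild-type arrays. Summed signals were 1.96 to 2.07 in the knockout and 2.60 to 2.67 in wild type for 9 myeloid markers. For 7 erythroid and thrombocyte markers they were 0.442 to 0.490 in the knockout and 0.330 to 0.375 in wild type. Of these, HBZ, HBE1, GFI1B and TAL1 did not rise clear of background on any array. ITGB3 had the highest signal, at -1.52 in the knockout and -1.97 in wild type on the log2 scale. For 8 T cell markers the sums were 74.5 to 88.4 in the knockout and 68.1 to 70.6 in wild type. CD3D, at 6.18 in the knockout and 6.01 in wild type on the log2 scale, made up most of the T cell sum. Its change was not called (0.17, adjusted p = 0.073), and the other tested T cell markers were called in both directions. The part of these markers in the changes reported here was not tested.

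DNAJB9, a co-chaperone of HSPA5 in the endoplasmic reticulum, fell by a similar amount on both of its probes. Probe A_87_P106293 stood at -1.0, -1.01 and -1.01 in the knockout, against -0.36, -0.32 and -0.31 in wild type. The spread within each group was small, 0.004 (SD, n = 3) in the knockout and 0.03 (SD, n = 3) in wild type, and the groups were 0.64 apart at their closest. The change was -0.67 ± 0.03, which is 1.59-fold lower (95% interval 1.5 to 1.69, adjusted p = 9.8e-06). Probe A_87_P051561 stood at -1.87, -2.0 and -1.97 in the knockout, against -1.25, -1.19 and -1.16 in wild type. It was 1.67-fold lower (-0.74 ± 0.05, adjusted p = 3.0e-05). The change on the first probe minus that on the second was 0.07 ± 0.04 (exact permutation p = 0.30, adjusted 0.45 over the 6 pairs of probes).

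CD38, an ectoenzyme that turns NAD into cyclic ADP-ribose and ADP-ribose, was detected only in wild type. Its single probe (A_87_P219333) stood at -8.56, -8.78 and -8.38 in the knockout, where it did not rise clear of background on any array, against -3.03, -3.83 and -3.81 in wild type. Wild-type replicate 1 was the highest of the wild-type arrays, and even the lowest of them lay above every knockout array. The knockout values are at background, so the gap between the groups is no measured size. In wild type the signal was 7.52 to 14.0 times the local background, so CD38 was a dim but clear transcript there. The fall was at least 8.28-fold. Limma's adjusted p of 7.3e-06 belongs to the fitted change, which takes in knockout signals at background, and does not test this bound. The probe passed the filter through its wild-type arrays alone. With normexp the fitted fall was 4.05-fold, since its offset raises the floor. Loss of detection from all wild-type arrays to none in the knockout was found in 1.79% of tested probes. The bound rests on the mean of the 3 wild-type arrays, so the higher replicate 1 (365 units, against 218 and 209) raised it. A bound without that replicate was not computed.

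SDC1, a heparan sulphate proteoglycan of the cell surface, was present in both groups and lower in the knockout. Its brighter probe (A_87_P149878) stood at -0.48, -0.52 and -0.56 in the knockout, against 0.17, 0.15 and 0.18 in wild type. The change was -0.69 ± 0.04, which is 1.61-fold lower (95% interval 1.51 to 1.72, adjusted p = 1.3e-05). The dimmer probe (A_87_P217088) stood at -4.15, -4.14 and -3.94 in the knockout, against -3.33, -3.38 and -3.38 in wild type. It was 1.64-fold lower (-0.71 ± 0.07, adjusted p = 0.00013), and the change on the brighter probe minus that on the dimmer one was 0.03 ± 0.09, within their spread (exact permutation p = 0.90). For each of the 8 called probes of the 5 genes the groups did not overlap, and the exact permutation test gave p = 0.1. With 3 arrays in each group no smaller p is possible in that test. Calls with a fall of at least 1.5-fold, as all probes of DNAJB9, CD38 and SDC1 showed, made up 12.8% of tested probes.

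SDC1 lies on a chromosome whose genes were lower in the knockout as a whole. On the GRCg7b assembly, the 307 tested genes of that chromosome had a median log2 fold change of -0.39, against 0.05 over all 3836 genes placed. With the chromosome's median subtracted, the fall of SDC1 was -0.30 (adjusted p = 0.00065) on the brighter probe and -0.33 (adjusted p = 0.0052) on the dimmer one. Such p-values, here and below, take the median as a fixed number and keep limma's SE, so they measure spread between arrays. They do not test how a gene stands among the genes of its chromosome. They are adjusted over the 8284 probes with a placed gene, of which 2682 were called higher and 2759 lower. The other 4 genes lie on chromosomes with medians between 0.09 and 0.10, and their changes less that median were 4.37 for CREB3L2, -0.77 for DNAJB9 and -0.00038 for XBP1 (A_87_P017704). CD38 has only a bound, and its chromosome's median was 0.10.

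**Figure D2:**
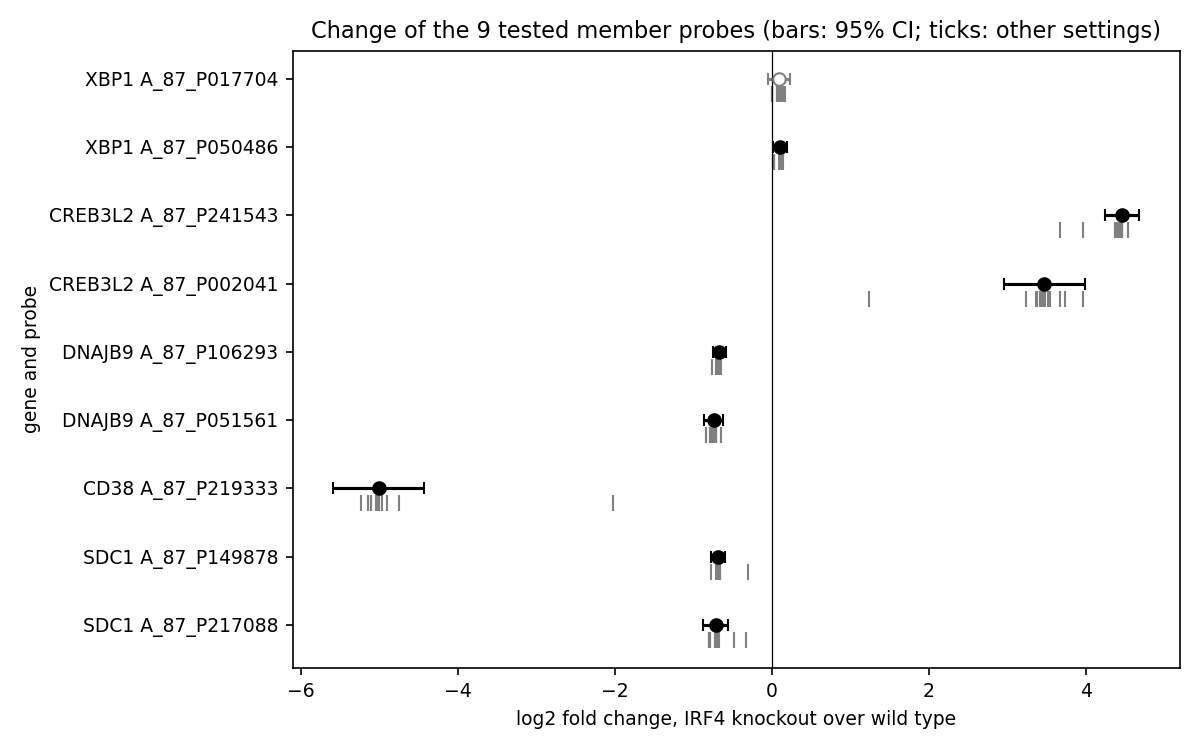
Log2 fold change of knockout over wild type (horizontal axis) for the 9 tested probes (vertical axis), with 95% intervals from limma (n = 3 in each group). Filled points passed the threshold, the open point did not, and grey ticks are the same change under the other settings. The ticks nearer to 0 for CD38 (-2.02) and for CREB3L2 probe A_87_P002041 (1.24) are from normexp, and those of SDC1 (-0.30 and -0.33) from subtraction of the chromosome's median. The fitted values of these CD38 and CREB3L2 probes include a group at background and are no measured size.

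Of the 4 slides 2 carried an array of each group, which gives a comparison within a slide. On slide 1 and slide 2 the change was 4.19 and 4.59 for the brightest CREB3L2 probe. It was -0.64 and -0.69 for DNAJB9 (A_87_P106293) and -0.66 and -0.67 for SDC1 (A_87_P149878). CD38 was not well above background on the knockout array of either slide and was so on both wild-type arrays. For XBP1 it was 0.17 on both slides with A_87_P017704, and 0.14 and 0.11 with A_87_P050486. The within-slide changes had the direction of the pooled ones for these probes. With slide as a fixed block the XBP1 changes were 0.17 (adjusted p = 0.098) and 0.12 (adjusted p = 0.18), and neither passed.

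The chaperones and folding enzymes that work with DNAJB9 were mostly lower. Of 20 genes listed 9 had a probe with a matched accession, and of these 1 was higher, 7 were lower and 1 did not pass, with a median of -0.24. Among all genes with a name that were tested, 70.3% were called, 38.5% higher and 31.8% lower, with a median of 0.05. PDIA4, a protein disulphide isomerase, fell 2.18-fold (-1.13 ± 0.07, adjusted p = 2.8e-05). TXNDC5, a thioredoxin-like folding enzyme, fell by 0.51 (SE 0.04). HSPA5, the main Hsp70 chaperone of the endoplasmic reticulum, fell 1.41-fold (-0.50 ± 0.05, adjusted p = 0.00017), and HSP90B1, its Hsp90 counterpart, 1.31-fold (-0.39 ± 0.06, adjusted p = 0.0012). The log2 fold changes of both other HSPA5 probes lay lower still. DNAJC3, CANX and CRELD2 had smaller changes, between -0.24 and -0.18, that were also called. The mean of the DNAJC3 probes, some of them called in the opposite direction, was 0.04 (adjusted p = 0.39), and CRELD2 missed the threshold on dropping any array other than knockout replicate 2 (adjusted p up to 0.096). P4HB, also a disulphide isomerase, rose by 0.38 (SE 0.04), and PDIA3 (0.12 ± 0.09) did not pass. Of the 7 lower genes, PDIA4 and TXNDC5 lie on a chromosome with a median of -0.43. With that subtracted PDIA4 fell by 0.70 (adjusted p = 0.00030) and TXNDC5 did not pass (-0.09, adjusted p = 0.12).

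The sensors and factors of the unfolded protein response had smaller changes. Only 5 of 19 listed genes could be tested, of which 1 was higher, 2 were lower and 2 did not pass, with a median of 0.01. Over all tested genes with a name 38.5% were higher and 31.8% lower. EIF2AK3, which encodes the sensor kinase PERK, stood 0.43 lower (SE 0.12, adjusted p = 0.021), but the call was lost with the mean of both (adjusted p = 0.20) and without wild-type replicate 1 (0.063) or 2 (0.059). WFS1, a membrane protein of the endoplasmic reticulum, fell by 0.32 (SE 0.03). ATF4, the transcription factor downstream of PERK, was called higher by 0.15 (SE 0.04, adjusted p = 0.018), and turned to -0.02 with quantile scaling (adjusted p = 0.72). It also missed the threshold without wild-type replicate 2 (0.063) or 3 (0.061). NFE2L2 (0.01 ± 0.04) and EIF2S1 (0.05 ± 0.06) did not pass. ERN1, ATF6, DDIT3, MBTPS1 and CREB3 are not analysed here.

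Genes that remove misfolded proteins from the endoplasmic reticulum went both ways, with 2 of 9 tested genes higher, 4 lower and 3 not called (median 0.08). The shares over all tested genes with a name were 38.5% higher and 31.8% lower. UBE2J1, a ubiquitin-conjugating enzyme of this degradation pathway, fell 2.75-fold (-1.46 ± 0.08). Less its chromosome's median of -0.39 the fall was 2.10-fold (-1.07, adjusted p = 7.6e-05). DERL1, a channel component, fell by 0.47 and all of its other tested probes had negative changes too, but it lies on the chromosome with a median of -0.43 and did not pass with that subtracted (-0.05, adjusted p = 0.46). SELENOS fell by 0.23 (SE 0.06). SEL1L, the adaptor of the main ligase complex, rose 1.41-fold (0.49 ± 0.04) and EDEM1, a lectin for proteins to be degraded, 1.24-fold (0.31 ± 0.04). Less its chromosome's median, EDEM1 missed the threshold (0.08, adjusted p = 0.12).

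Genes of protein entry into the secretory pathway and of vesicle coats split almost evenly, with 8 of 22 tested genes higher, 9 lower and 5 not called (median -0.05). That is 36.4% higher and 40.9% lower, against 38.5% and 31.8% over all tested genes with a name. MCFD2, a cargo receptor subunit, had a log2 fold change of -0.83 ± 0.05 and SEC62, a translocon partner, of -0.75 ± 0.03. The COPII coat genes SEC23A (-0.64 ± 0.04) and SEC23B (-0.50 ± 0.05) fell as well. SEC23A is a target of CREB3L2 in mouse chondrocytes. Of the 9 lower genes 5, among them MCFD2, SEC62 and SEC23B, lie on chromosomes with medians of -0.39 or below, while SEC23A lies on one with a median of 0.09. Less the median, MCFD2 stood at -0.44 (adjusted p = 0.00034) and SEC62 at -0.11 (adjusted p = 0.033), and SEC23B missed the threshold (-0.11, adjusted p = 0.081). The 4 largest rises, COPG1 (0.32 ± 0.08), SRP72 (0.28 ± 0.04), SEC63 (0.26 ± 0.04) and SSR2 (0.25 ± 0.07), were at most 1.25-fold. SEC63 lies on a chromosome with a median of -0.39, and less that median its rise was 0.65 (adjusted p = 3.7e-05), whereas COPG1 missed the threshold (0.09, adjusted p = 0.35), as did SSR2 (0.13, adjusted p = 0.16). SSR2 also missed the threshold with quantile scaling (adjusted p = 0.071) and without knockout replicate 3 (0.050) or wild-type replicate 2 (0.058) or 3 (0.062).

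**Figure D3:**
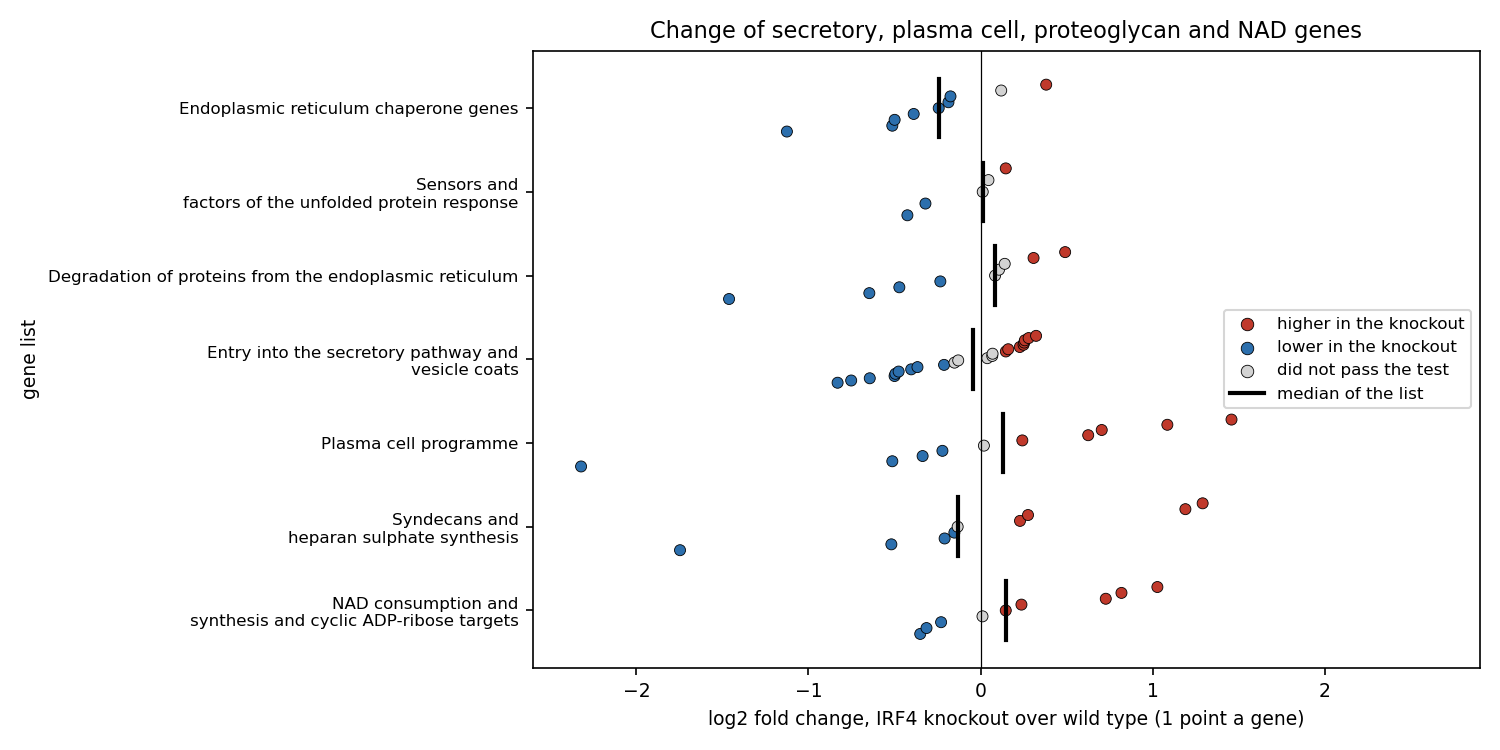
Log2 fold change of knockout over wild type (horizontal axis) for each tested gene of the 7 gene lists (vertical axis), 1 point a gene by its brightest probe. Red points were called higher, blue points lower, grey points did not pass, and the black bar is the median of the list. In the chaperone list 7 of 9 genes lie on the lower side, and the medians of the lists lie between -0.24 and 0.15.

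The plasma cell programme, without IRF4 and the 5 genes themselves, had 10 tested genes, of which 5 were higher, 4 lower and 1 did not pass (median 0.13). Among all tested genes with a name 38.5% were higher and 31.8% lower. The list pools plasma cell genes with others, such as PAX5 and BCL6 described below, so its counts give no direction of the programme. TNFRSF13B, the receptor TACI for B cell survival factors, rose by 1.46 (SE 0.05), and the interleukin-6 receptor genes IL6R and IL6ST rose 2.1-fold (1.09 ± 0.07) and 1.63-fold (0.70 ± 0.09). JCHAIN, the joining chain of polymeric antibodies, rose 1.54-fold (0.63 ± 0.05), at 2.45 in the knockout and 1.83 in wild type. ID3, whose product blocks E protein transcription factors, had a log2 fold change of -2.32 ± 0.07, TXNDC5 fell as given above, and CXCR4, a chemokine receptor, was called lower by 0.22 (SE 0.08, adjusted p = 0.037). CXCR4 missed the threshold (adjusted p up to 0.11) on dropping any array other than wild-type replicate 1. POU2AF1, a B cell coactivator, did not pass on its brightest probe (0.02 ± 0.06), and another of its probes was called lower. BCL6 (-0.34 ± 0.05), a repressor that opposes plasma cell differentiation in mouse, lies on a chromosome with a median of -0.65, and less that median its change was 0.31 (adjusted p = 0.0023). PAX5 (0.24 ± 0.06), a factor of B cell identity, was called higher and missed the threshold less its chromosome's median (0.08, adjusted p = 0.27). PRDM1 and TNFRSF17 are not analysed here.

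The relatives of SDC1 and the enzymes of its heparan sulphate chains were likewise mixed, with 4 of 9 tested genes higher, 4 lower and 1 not called (median -0.13). The shares over all tested genes with a name were 38.5% higher and 31.8% lower. SDC4, the other syndecan gene that could be tested, rose 2.45-fold (1.29 ± 0.13, adjusted p = 0.00021), at -3.63 in the knockout and -4.92 in wild type. No probe of SDC2 or SDC3 was well above background on any array. Of the 6-O-sulphotransferases, HS6ST1 fell 3.36-fold (-1.75 ± 0.05) on its brightest probe and HS6ST2 rose 2.28-fold (1.19 ± 0.09). The other HS6ST1 probe was also lower, with 0 of 3 knockout arrays and 3 of 3 wild-type arrays well above background, and less its chromosome's median of -0.65 the brightest probe's fall was 2.14-fold (adjusted p = 5.3e-06). XYLT2, a xylosyltransferase that starts the chains, fell by 0.52 (SE 0.08), and SDCBP, which encodes the syndecan-binding protein syntenin, by 0.21 (SE 0.05). With its chromosome's median subtracted SDCBP turned up (0.22, adjusted p = 0.0093). B4GALT7 (-0.15 ± 0.06, adjusted p = 0.049) missed the threshold when any array other than wild-type replicate 3 was left out. EXTL2 (0.23 ± 0.06) and HS2ST1 (0.28 ± 0.07) were called higher and missed the threshold with median centring (adjusted p = 0.084 and 0.056).

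Around CD38, genes of NAD metabolism had 5 of 9 tested members higher, 3 lower and 1 not called (median 0.15). Over all tested genes with a name 38.5% were higher and 31.8% lower. NADSYN1, an enzyme of NAD synthesis, rose 2.04-fold (1.03 ± 0.07), the NAD kinase gene NADK 1.76-fold (0.82 ± 0.04) and the NAD-dependent deacylase genes SIRT3 by 0.73 (SE 0.05) and SIRT2 by 0.24 (SE 0.05). NMRK1 fell by 0.35 (SE 0.06), NAPRT, which makes NAD from nicotinic acid, by 0.31 (SE 0.06), and PARP1, which consumes NAD in DNA repair, by 0.23 (SE 0.04). NAPRT and PARP1 lie on chromosomes with medians of -0.43 and -0.39, and with these subtracted NAPRT did not pass (0.11, adjusted p = 0.15) while PARP1 was called higher (0.16, adjusted p = 0.0079). SIRT2 missed the threshold less its chromosome's median (0.06, adjusted p = 0.36). BST1, the paralogue of CD38, passed background on 1 of 3 knockout arrays and on no wild-type array, and was not tested. Over the 7 lists, 48 called genes, mostly those with the largest changes of their list, were also followed with slide as a fixed block. The other called genes were not followed singly. With this block the whole entry and coat list had 3 higher and 8 lower, against 8 and 9 without it. The setting leaves fewer degrees of freedom, and 14 of the 48 lost their call. These were ATF4, B4GALT7, CANX, COPG1, CRELD2, CXCR4, EXTL2, HS2ST1, NAPRT, PARP1, SDCBP, SELENOS, SIRT2 and SSR2, and none of the 48 changed sign.

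Among the 10 nearest tested genes of CREB3L2, 5 on each side, changes lay between -0.09 and 0.68 with 4 called higher and 0 lower, against 4.47 for CREB3L2 itself. For this and the next counts of neighbours, the shares over all tested genes with a name were 38.5% higher and 31.8% lower. The neighbours of DNAJB9 had 5 higher and 2 lower, and those directly beside it were ZNF277 (0.67 ± 0.04) and THAP5 (-0.24 ± 0.04). Farther from DNAJB9, TES rose 6.20-fold (2.63 ± 0.20, adjusted p = 5.9e-05). The nearest tested gene on one side of CD38 was FGFBP2, which encodes a fibroblast growth factor binding protein. FGFBP2 stood at -6.20, -6.28 and -6.18 in the knockout, against -2.69, -2.76 and -2.77 in wild type. All 6 arrays detected it, but its knockout values lay near the weakest signal that counted as well above background there (-6.74, -6.58 and -6.51). It fell 11.1-fold (-3.48 ± 0.04, adjusted p = 7.7e-08). On the other side of CD38, NKX3-2 was called higher (1.51 ± 0.13), with 2 of 3 wild-type arrays well above background. TAPT1, just beyond FGFBP2, did not pass (-0.08 ± 0.08), though it was called lower without knockout replicate 1 (-0.17, adjusted p = 0.024). The 10 neighbours of CD38 had a median of 0.07, with 4 higher and 2 lower.

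Of the 10 neighbours of SDC1, 3 were higher and 5 lower, against 38.5% and 31.8% over all tested genes with a name. Beside it, LAPTM4A (-0.36 ± 0.05) and PUM2 (-0.46 ± 0.04) were lower, near their chromosome's median, and neither passed less that median (adjusted p = 0.69 and 0.18). Farther out, MATN3 was at least 8.04-fold lower, and HS1BP3 rose 3.04-fold (1.60 ± 0.10) with 2 of 3 wild-type arrays well above background. Of the 10 neighbours of XBP1, 6 were higher and 2 lower, against the same shares over all tested genes with a name. On either side of XBP1, CHEK2 did not pass (-0.05 ± 0.04) but was called lower with median centring (-0.14, adjusted p = 0.027). SMARCB1 fell by 0.16 (SE 0.04, adjusted p = 0.13 with the slide block). Within 5 genes CRYBB1 was at least 12.8-fold higher, GSTT1 rose 8.81-fold (from a scattered wild-type level, SD 1.02) and TBX6 rose 2.69-fold. TPST2 fell 1.52-fold (-0.61 ± 0.05).

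**Figure D4:**
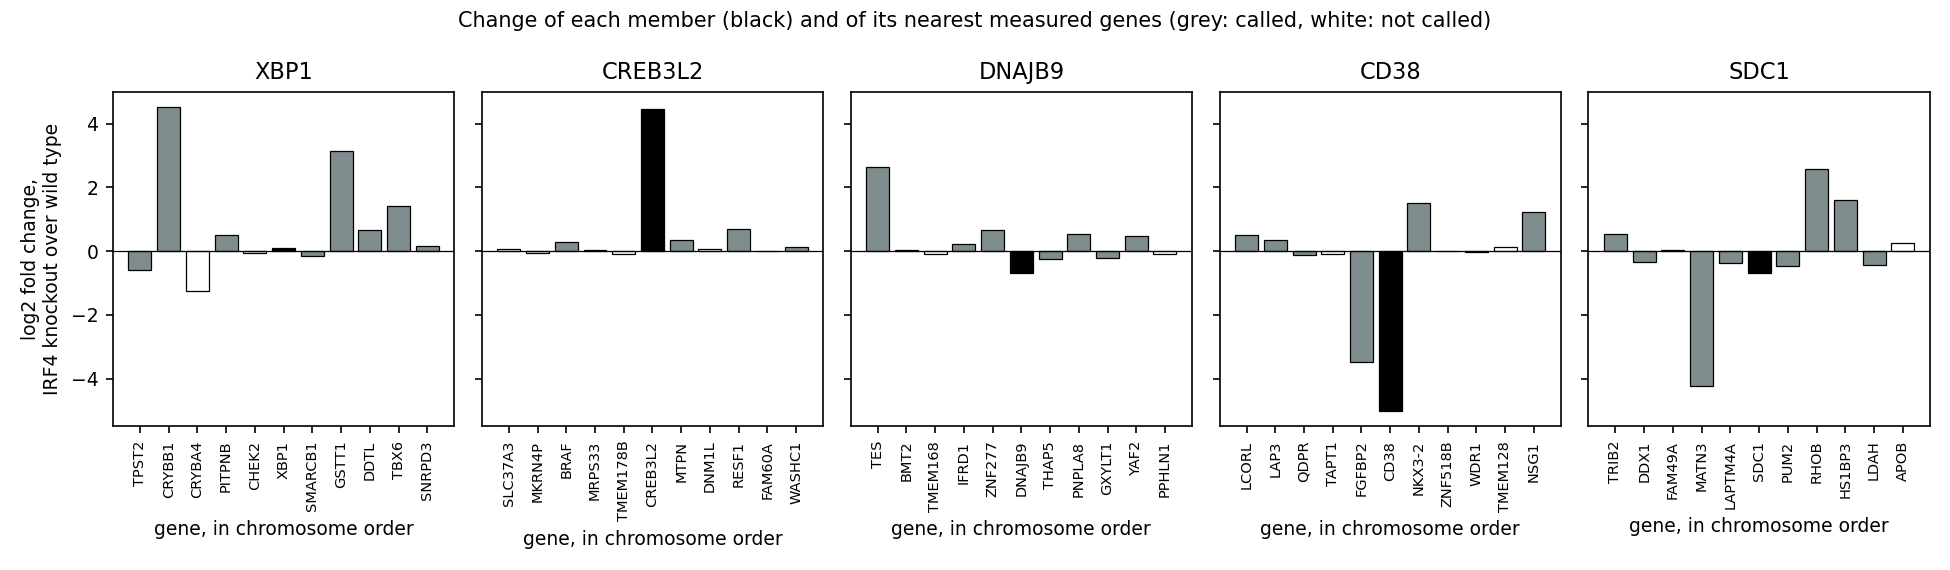
Log2 fold change of knockout over wild type (vertical axis) for each of the 5 genes, in black, and its 10 nearest tested genes in chromosome order (horizontal axis). Grey bars were called, white bars were not. CREB3L2 stands alone among its neighbours, whereas FGFBP2 beside CD38 is also low. The bars of CD38, CRYBB1 and MATN3 are fitted values with 1 group at background, so their heights are no measured sizes.

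The tested genes with the most similar profile were sought among 3817 named genes, by the root mean square distance of profiles over the 6 arrays after each was centred on its own mean. Nearest to the brightest CREB3L2 probe were GPM6B (distance 0.16 log2 units), COL1A2 (0.18) and CYGB (0.20), with log2 fold changes of 4.51, 4.24 and 4.29. CYGB was well above background on 2 of 3 wild-type arrays. For CD38 the nearest were MDK (0.30), LGALSL (0.32) and ARRDC1 (0.32), farther away, and all of these stayed well above background in the knockout. The CD38 profile takes in knockout signals at background, so these distances rest on a fitted change that is no measured size. The same holds for CREB3L2 probe A_87_P002041, with its wild-type signals at background. Nearest to DNAJB9 (A_87_P106293) were WDR53 (0.019), ESRRG (0.020) and DCAF13 (0.023), and to its other probe PHTF2, RNF13 and IFNGR2 (0.020 to 0.029). RAB5A (0.015), HSF2 (0.017) and AKR1A1 (0.021) lay nearest to the brighter SDC1 probe, and PAQR8, GJA4 and CCM2 (0.031 to 0.045) to the dimmer one. For XBP1 they were MFSD13A, NTHL1 and RBBP5 (0.022 to 0.028) with A_87_P017704 and CLK2, ABCE1 and KPNA3 (0.015 to 0.017) with A_87_P050486. NAV3, SSPN and COL22A1 (0.18 to 0.21), none of them well above background on any wild-type array, lay nearest to CREB3L2 probe A_87_P002041. With 6 arrays in 2 groups such a distance mostly compares the size of the group difference.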

How the data were processed

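Total RNA of 3 independent IRF4-deficient and 3 independent wild-type DT40 cultures received Cy3 label for one-colour arrays, per the labels' protocols, although the dye field reads biotin. Per the file headers, spots were read with Feature Extraction 10.7.1.1, and the deposited scanner files hold intensity values: the processed signal, background-subtracted by that software, and the raw spot and local background signals. The other columns used are the software's deposited flags and codes. A second table holds intensities that the authors brought to 1 common distribution, and limma and R 2.12.0 appear in the submitters' processing notes.

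Control spots (1417 of 45220 an array) and spots marked as outliers were dropped before the remaining spots of each probe were averaged. Log2 of the processed signal less the array's 75th percentile was fitted with limma 3.58.1 in R 4.3.3 over the 28761 probes for which either group had 3 arrays well above background. P-values were adjusted by the Benjamini-Hochberg method over all of them. Accessions were named through the RefSeq gene table of assembly GRCg7b, which gave 10691 of 43603 probes a name (4932 genes). Probes with other kinds of accession stayed unnamed and are not analysed here. Of several probes of a listed gene, the brightest stands for it. The number of arrays limits the precision, and no gene spot was saturated. The script was tested on simulated data.

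Alternatives were normexp with an offset of 50, median centring, quantile scaling, the authors' table, other filters, slide or replicate number as a block, each array left out, the mean of a gene's probes, and the chromosome's median subtracted. Normexp was run on the median spot signal in place of the planned mean. The 5 genes and the 7 gene lists were chosen with earlier results of these data known. Named in the text are all probes of the 5 genes and IRF4, up to 4 rises and 4 falls a list with the largest changes, 17 listed genes whatever their result, the genes beside each member, and the 3 most similar profiles for each tested probe. DNAJC3, CANX, CRELD2, PDIA3, P4HB, NFE2L2, EIF2S1, TAPT1, MATN3, HS1BP3, CRYBB1, GSTT1, TBX6 and CD3D include genes outside this rule, named after their values were seen. TES, TPST2 and further cell type markers were also named in this way. One result of the degradation list and one of a neighbouring gene are not reported here.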

Additional observations from a re-analysis of the deposited data

How the results depend on the processing

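Of 186 values of the probes of the 5 genes and IRF4 under 17 alternatives, 168 were counted as unchanged in direction and side of the threshold. Of the others, 14 lost the call and 4 changed sign, and all 18 belonged to XBP1. The 168 include the fits of CREB3L2 probe A_87_P216753, which had no call to keep and was counted by direction and size alone. Probe A_87_P017704, not called to begin with, gave -0.0030 with median centring, -0.0046 with quantile scaling, -0.0042 with the authors' table and -0.00038 with the chromosome's median subtracted, and 0.062 to 0.14 with 1 array left out. Probe A_87_P050486 lost its call with normexp (0.138), median centring (0.019), quantile scaling (0.028), the authors' table (0.029), no filter (0.109), slide as a fixed block (0.123), the mean of both probes (0.098) and the chromosome's median subtracted (0.022), and gave 0.089 to 0.125 with 1 array left out. CREB3L2 probe A_87_P216753, which was not tested, could be fitted only without a filter (1.86) or without knockout replicate 2 (2.05). That replicate is the knockout array on which the probe was not well above background, so leaving it out made the probe pass the filter. Both fits take in wild-type signals at background, so these values are no measured sizes. Same-numbered arrays did not deviate together (r between -0.012 and -0.0084), although slides 1 and 2 each held such a pair, so the numbers were not taken as pairs. With the replicate number as a block 11104 probes were higher and 8170 lower, and XBP1 probe A_87_P050486 gave 0.109 (adjusted p = 0.070), the 1 call among these probes that was lost. Over all probes 11635 were called higher and 8523 lower. Median centring, which shifts all changes by -0.090, turned this split to 9251 higher and 10269 lower. Less the chromosome's median, which only 8284 probes with a placed gene have, 2682 were higher and 2759 lower. Among the lists, the unfolded protein response sensors had 0 higher with median centring, quantile scaling, the authors' table, no filter, the slide block and the chromosome's median subtracted, and 1 lower with no filter or the mean of probes. With 1 array left out they had 0 to 1 higher and 1 to 2 lower. The entry and coat genes had 3 higher with median centring or the slide block, 4 with quantile scaling or the authors' table, 2 less the chromosome's median, and 5 to 7 with 1 array left out. The syndecan list had 2 higher with median centring or the slide block. The NAD list had 3 higher and 1 lower with the slide block, and 1 lower less the chromosome's median, under which the degradation list had 1 higher and the plasma cell list 2 lower. The causes of these shifts were not tested. Signals near background limit the CD38 and dimmer CREB3L2 values to bounds.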
